A study of Mus musculus with 2 samples.

Results

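Retinoic acid is made, destroyed and sensed by a small set of proteins, and 9 of their genes were followed here in single-nucleus RNA-seq of fetal mouse brain. They are the synthesis enzymes Aldh1a2 and Aldh1a3, the clearance enzymes Cyp26a1, Cyp26b1 and Cyp26c1, the cytosolic binding protein gene Crabp1, and the receptor genes Rara, Rarb and Rarg. The 9 were named by symbol among the 55416 features of the count tables, of which 34140 had a count in the nuclei used. They were selected on their UMI counts and ratios in these same libraries, so their levels and ratios below are descriptions, with no test. One library came from whole brain labelled wildtype and the other from whole brain labelled Cav1 knockout (KO), both of fetal age. Nuclei were isolated from thawed frozen brain and counted with a droplet kit that reads the 3′ ends of RNAs. The gene Cav1 encodes caveolin 1, a membrane protein of caveolae. The strain, the fetal stage, the sex, the number of animals behind each library and the exons deleted are not given in the sources used here.

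Each genotype had 1 library, so genotype cannot be told apart from litter, dissection, nuclei preparation and library, and no difference below has a replicate check. Values are counts of unique molecular identifiers (UMIs, each standing for 1 captured RNA molecule), given also per 1000000 UMIs of the same nuclei (CPM). In such sums, fewer cells of a type and less RNA per cell cannot be told apart. Intervals are exact 95% intervals that cover counting error only. They treat UMIs as independent, which is too narrow for a gene whose UMIs pile up in few nuclei. Barcodes with 500 or more detected genes and mitochondrial UMIs of 5% or less were kept as nuclei. The wildtype-labelled library kept 6686 nuclei with 17205381 UMIs, and the knockout-labelled one kept 6680 with 19878903, at medians of 2133.5 and 2366 UMIs per nucleus. Cav1 itself had 71 and 80 UMIs (4.13 and 4.02 CPM). Here and below the wildtype-labelled value comes first and the knockout-labelled value second, and a log2 ratio above 0 means more in the knockout-labelled library. The Cav1 total therefore did not separate the libraries by label, and 3′ counts check a deletion only if the counted stretch was deleted. The libraries shared 43 barcodes, and 10 of these were kept in both. With every nucleus that carried a shared barcode left out, 6660 and 6665 nuclei remained and the ratios of the 7 members with at least 20 UMIs kept their direction.

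The libraries also differed in the UMIs of genes that mark brain regions. A list of 11 Hox genes, which mark hindbrain and spinal cord, had 9 UMIs in the wildtype-labelled library against 513 in the knockout-labelled one. All 11 were higher in the latter, and 6 of them (Hoxa2, Hoxa3, Hoxa4, Hoxb2, Hoxb5 and Hoxd3) were at 0 in the former, although both were labelled whole brain. A list of 9 midbrain-hindbrain boundary genes, such as En1, Pax5 and Cnpy1, had 357 and 1394 UMIs, and 8 of the 9 were higher. En1, En2, Pax2, Pax5, Pax8 and Cnpy1 had ratio intervals above 0. Those of Fgf8 (13 and 20 UMIs), Fgf17 (19 and 18) and Wnt1 (3 and 11) included 0. The forebrain list was lower by 0.33 on the log2 scale. With 1 library each, regional content of the tissue and genotype cannot be told apart as sources of this difference in marker UMIs.

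Retinoic acid is a small lipid made from vitamin A. Retinaldehyde dehydrogenases of the Aldh1a family carry out the last, irreversible step of its synthesis, and cytochromes of the Cyp26 family oxidise it, which lowers its level in the cells that express them. Inside the nucleus it binds retinoic acid receptors, which sit on DNA with retinoid X receptors at pairs of short repeats. In the embryo the meninges are a known source of retinoic acid for the forebrain, and graded retinoic acid patterns the hindbrain.

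The repeats that receptors bind can be read in the promoters of the members. Promoter windows of 300 bases (250 before to 50 after the RefSeq start, GRCm38.p6) were at hand for 8 of the 9 members, all but Aldh1a3. The receptor half-site AGGTCA, together with the variant AGTTCA, the variant written GGGTCA and the variant written GGTTCA, was searched on both strands as direct repeats 5, 2 or 1 bases apart. A repeat with spacing 5 stood in 32 of 32817 promoter windows (0.0975%), and 2 of these belonged to members. The windows searched leave out 1 chromosome, which holds no member, and a window listed more than once was counted once. Repeats with spacings 2 and 1 stood in 88 (0.268%) and 73 (0.222%) windows, none of them of a member. A single hexamer of the 4 was found in 43.7% of windows. The 250 bases before the start are shown 5′ to 3′ on the gene's strand for the 2 members with such a repeat and for Cyp26b1, the member with the largest difference between the libraries. Capitals mark the half-sites of the repeats.
Rarb (chr14:16575477-16575726, minus strand): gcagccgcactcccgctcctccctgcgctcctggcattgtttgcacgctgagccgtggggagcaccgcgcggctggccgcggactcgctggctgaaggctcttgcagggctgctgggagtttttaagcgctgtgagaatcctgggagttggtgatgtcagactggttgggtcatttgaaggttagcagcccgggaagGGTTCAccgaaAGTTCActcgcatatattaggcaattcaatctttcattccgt
Cyp26a1 (chr19:37697558-37697807, plus strand): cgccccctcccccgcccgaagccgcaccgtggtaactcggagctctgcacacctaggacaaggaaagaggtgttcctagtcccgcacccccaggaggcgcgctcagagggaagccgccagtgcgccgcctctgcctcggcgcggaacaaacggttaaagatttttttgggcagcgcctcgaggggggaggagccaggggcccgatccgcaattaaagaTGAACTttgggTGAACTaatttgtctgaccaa
Cyp26b1 (chr6:84593811-84594060, minus strand): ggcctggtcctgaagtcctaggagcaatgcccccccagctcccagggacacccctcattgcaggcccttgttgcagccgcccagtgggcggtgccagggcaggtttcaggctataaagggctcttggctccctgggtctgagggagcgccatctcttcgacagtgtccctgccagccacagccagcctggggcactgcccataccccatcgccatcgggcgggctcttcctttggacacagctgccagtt

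In Rarb the repeat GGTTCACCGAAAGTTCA lay at -53 to -37 from the start. In Cyp26a1 the repeat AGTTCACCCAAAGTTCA lay on the opposite strand at -32 to -16, so it appears above as its reverse complement. The Cyp26b1 window held 0 of the hexamers on either strand. A match is a stretch of letters and not a measured binding site, and the absence of one says nothing of sites outside these windows. Of the 2 genes with the repeat, Rarb was counted in both libraries and Cyp26a1 in neither.

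Among the 9 members, 7 had at least 20 UMIs over both libraries. Of these, 1 was 2-fold or more higher in the knockout-labelled library (Cyp26b1) and 0 were 2-fold or more lower. Over all 21131 genes with at least 20 UMIs, 1.92% were 2-fold or more higher and 0.928% 2-fold or more lower, and the median log2 ratio was -0.01. The other 6 members lay between -0.31 and 0.83.

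**Figure D1:**
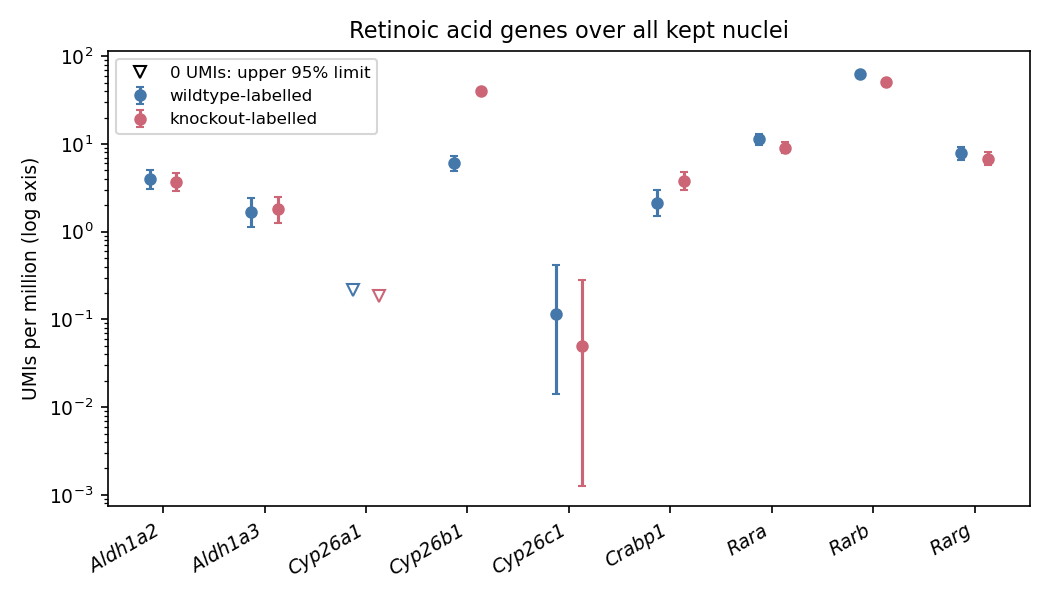
CPM over all kept nuclei (log axis) for the 9 genes in the wildtype-labelled (blue) and knockout-labelled (red) library, with exact 95% counting intervals; open triangles are the upper ends of the interval where no UMI was counted. Cyp26b1 stood at 6.04 against 40.6 CPM, and Cyp26a1 had no UMI in either library.

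Aldh1a2, the main retinoic acid-producing enzyme of the embryo (ENSMUSG00000013584, chr9:71122630-71203527 on GRCm39, plus strand), was a gene of the meninges in both libraries. Over all nuclei it had 68 and 73 UMIs (3.95 and 3.67 CPM), a log2 ratio of -0.11 (-0.60 to 0.39). The 2 levels overlapped within counting error.

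The meninges gate took nuclei with UMIs of at least 4 of 12 genes of meningeal fibroblasts (such as Col1a2, Lum, Foxc1 and Slc6a13), and it held 89 and 106 nuclei. Such a gate is a range cut from marker counts, not a cell type: 21 nuclei of each library sat exactly at the cut and 23 and 34 were 1 marker short of it. Its nuclei also carried a median of 3 and 4 of the 13 neuron markers. In this gate Aldh1a2 had 43 UMIs (130 CPM) and 56 UMIs (113 CPM), which were 63.2% and 76.7% of all its UMIs although the gate held 1.33% and 1.59% of the nuclei. The library ratio within it was -0.20 (-0.80 to 0.41).

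A UMI of Aldh1a2 was seen in 24.7% and 29.2% of meninges-gate nuclei, against 0.383% and 0.317% of neuron-gate nuclei, which serve here as the background. Median depths were 2790 and 3083.5 UMIs in the meninges gate and 2318.5 and 2610 in the neuron gate. With every nucleus thinned to 1000 UMIs, leaving out 2 and 1 shallower meninges-gate nuclei, the shares were 9.20% and 11.4%, against 0.138% and 0.166% of neuron-gate nuclei with 363 and 514 left out. The endothelial, mural, choroid plexus and microglial gates held 0 UMIs of Aldh1a2 in both libraries. Of the nuclei with an Aldh1a2 UMI, 34.8% and 33.3% also had one of Rarb, against 6.48% and 6.80% of other nuclei. Within the gates, nuclei with Aldh1a2 were richest in Ptgds, the prostaglandin D synthase of the leptomeninges (10.1-fold and 2.45-fold over other nuclei of the same gates), followed by Irs1, Mapk4, Bmp6 and Slc6a13 at about 2-fold (1.95 to 2.22).

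Aldh1a3, a second synthesis enzyme (chr7:66040638-66077850, minus strand), had few UMIs in either library. It had 29 UMIs (1.69 CPM) and 36 UMIs (1.81 CPM), a log2 ratio of 0.10 (-0.64 to 0.86). The neuron gate held 23 and 26 of them (1.81 and 1.74 CPM), close to the level over all nuclei. That gate took 70.3% and 70.9% of nuclei, so it did not stand out for Aldh1a3. The meninges gate had none in either library. In the nuclei of the ventral forebrain and striatum gate, which needs 3 of 8 genes such as Dlx1, Gad2 and Isl1, Aldh1a3 had 13 UMIs (6.22 CPM) and 7 UMIs (2.54 CPM). This gate held 37.5% of the 24 and 18.8% of the 32 nuclei with Aldh1a3, against 6.54% and 6.98% of the other nuclei. The log2 ratio there was -1.29 (-2.86 to 0.14), an interval that includes 0. Nuclei with Aldh1a3 were richest in the long noncoding RNA B020031H02Rik (13.1-fold and 14.2-fold) and its neighbour Gm45680 (9.98-fold and 12.4-fold), which overlap on opposite strands of chromosome 8. Then came Gm44593, Mpped2 and the interneuron transcript Dlx6os1 (4.66-fold and 3.45-fold). The rest of the first 10 were of mixed kinds. They were Nrxn3 (2.82-fold and 3.02-fold), Meis2 (2.52 and 2.63) and Top2a, a gene of dividing cells (2.45 and 3.17). Gad2, which makes the transmitter GABA, was at 2.51-fold and 2.38-fold, and Sox2ot at 2.29-fold and 3.76-fold.

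**Figure D2:**
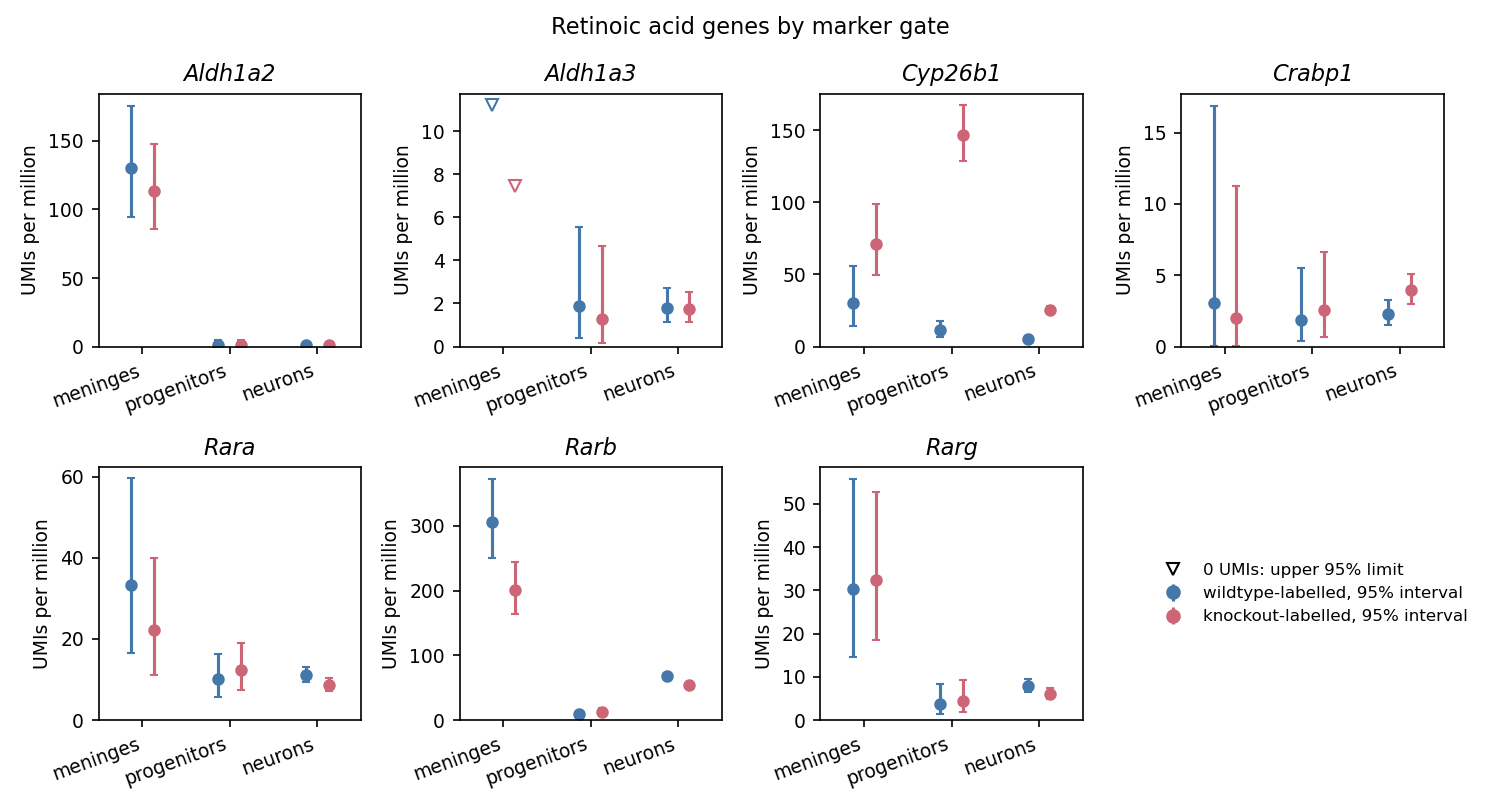
CPM in the meninges, progenitor and neuron gates for 7 genes, by library (blue wildtype-labelled, red knockout-labelled), with exact 95% counting intervals and open triangles at its upper end where no UMI was counted. Aldh1a2 and Rarb were highest in the meninges gate, and Cyp26b1 in the knockout-labelled progenitor gate (147 CPM).

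Of the 3 genes for retinoic acid-oxidising cytochromes, Cyp26b1 was the one with counts. Cyp26a1 (chr19:37686241-37689984, plus strand) had 0 UMIs in both libraries, which allows up to 0.174 and 0.151 CPM (3 UMIs of each library's total; the exact 95% interval ends at 0.214 and 0.186 CPM). Its neighbour Cyp26c1 (chr19:37674029-37684073, plus strand) had 2 UMIs and 1 UMI.

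Cyp26b1 (ENSMUSG00000063415, chr6:84548396-84570890, minus strand) had 104 UMIs (6.04 CPM, 4.94 to 7.32) in 71 wildtype-labelled nuclei and 808 UMIs (40.6 CPM, 37.9 to 43.5) in 272 knockout-labelled nuclei. The log2 ratio was 2.75 (2.45 to 3.06), or 6.72-fold. A UMI was found in 1.06% and 4.07% of nuclei, and in 0.497% and 2.35% after thinning to 1000 UMIs, with 846 and 1111 shallower nuclei left out. Its level differed little between nuclei of different depth: nuclei of 500 to 1500, 1500 to 3000 and over 3000 UMIs gave 5.94, 6.80 and 5.45 CPM in the wildtype-labelled library. The same 3 classes gave 36.7, 39.2 and 41.9 CPM in the knockout-labelled library.

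The UMIs were unevenly spread over nuclei. In the wildtype-labelled library 15 nuclei had 2 or more, 3 had 5 or more, and the highest had 7. In the knockout-labelled library 105 had 2 or more, 58 had 5 or more and 21 had 10 or more, up to 18. Those 58 nuclei held 518 of the 808 UMIs (64.1%), whereas the 3 held 17 of 104 (16.3%). The libraries thus lay farther apart in nuclei with many copies than in nuclei with any.

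**Figure D3:**
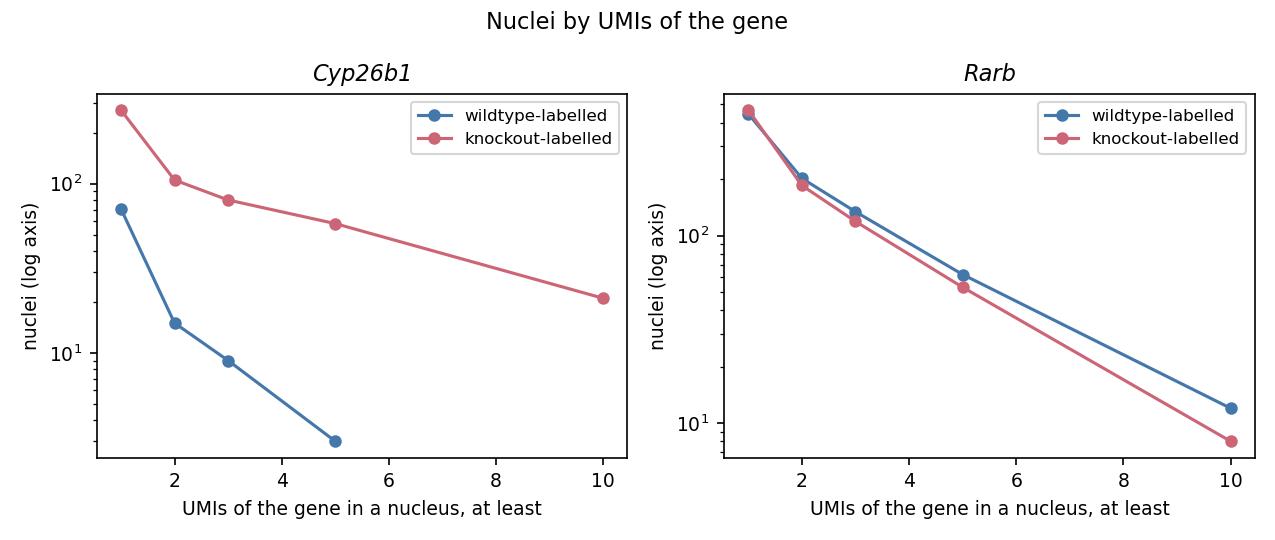
Number of nuclei (log axis) with at least 1, 2, 3, 5 or 10 UMIs of Cyp26b1 (left) and Rarb (right) in the wildtype-labelled (blue) and knockout-labelled (red) library. For Cyp26b1 the lines part with rising UMIs, 71 against 272 nuclei at 1 or more and 3 against 58 at 5 or more; for Rarb they run close together, 446 against 467 and 62 against 53.

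Of the 3 main gates, the progenitors had the highest ratio. The progenitor gate took nuclei with at least 2 of 13 markers of radial glia and dividing cells (such as Sox2, Hes5, Slc1a3 and Mki67) and at least as many of these as of neuron markers. It held 800 and 727 nuclei, 331 and 347 of them with equal numbers of both kinds. There Cyp26b1 had 18 and 228 UMIs (11.3 and 147 CPM), with a log2 ratio of 3.69 (3.00 to 4.48). A UMI was seen in 12 of 800 and 61 of 727 progenitor-gate nuclei, and in 0.746% and 6.04% after thinning. With 1 marker more asked of every gate the ratio was 3.14 (2.36 to 4.02). Their median depths were 1845.5 and 1922 UMIs.

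In the neuron gate (4700 and 4733 nuclei with at least 3 more neuron than progenitor markers) Cyp26b1 had 64 UMIs (5.05 CPM) and 383 UMIs (25.6 CPM), a log2 ratio of 2.34 (1.96 to 2.75). Nuclei with a UMI were 1.00% and 3.23% of this gate, beside 2 of 68 (2.94%) and 3 of 94 (3.19%) endothelial or mural nuclei. These few nuclei give wide intervals, and the share alone does not set neurons apart from them. The knockout-labelled neuron gate did hold 42 nuclei with 2 or more UMIs and 20 with 5 or more. Nuclei that met no gate, 879 in each library, had 10 and 142 UMIs (7.07 and 104.7 CPM), a ratio of 3.89 (2.97 to 4.98) that was above that of the progenitors.

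In the meninges gate Cyp26b1 had 10 UMIs in 4 nuclei (30.3 CPM) and 35 UMIs in 10 nuclei (70.9 CPM), a log2 ratio of 1.22 (0.18 to 2.40). This ratio rested on few nuclei and did not keep its direction in every alternative. Without the 8% of nuclei with the highest doublet scores in each library, the counts were 9 and 6 UMIs and the log2 ratio -1.21 (-2.99 to 0.44). The intervals overlapped, and the automatic threshold of these scores marked 0 doublets, so this cut cannot settle the direction. Under the same removal the progenitor gate held 18 and 220 UMIs and the neuron gate 56 and 270, so both kept their direction.

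The difference in regional markers between the libraries was measured beside this result. Nuclei with a UMI of any of the 11 Hox markers numbered 5 and 332 and held 0 and 119 Cyp26b1 UMIs. The boundary gate (at least 2 of 9 boundary genes) held 29 and 132 nuclei with 0 and 79 Cyp26b1 UMIs. That was 3.70-fold higher against a floor of 3 UMIs in the wildtype-labelled nuclei, with an exact lower limit of 2.94-fold. When every nucleus with a Hox or boundary marker UMI was left out, a choice made after seeing these data, 102 UMIs (6.24 CPM) and 364 UMIs (23.5 CPM) remained. The log2 ratio was then 1.91 (1.59 to 2.24), so 45.0% of the knockout-labelled UMIs were in nuclei with none of these markers. Among progenitors so filtered it was 2.78 (2.05 to 3.59), among neurons 1.51 (1.09 to 1.96) and in the meninges gate 0.98 (-0.12 to 2.19). A nucleus of this depth can come from the hindbrain without a Hox UMI, and what regional content contributes to the rest was not tested.

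Gates of markers of other regions were looked at as well. Each regional gate was set on its own, so its nuclei may also carry Hox or boundary marker UMIs. These gates are therefore not a view of nuclei free of posterior markers. In the diencephalon and midbrain gate, which needs 2 of 6 genes such as Tcf7l2 and Lhx9, Cyp26b1 had 11 and 146 UMIs (3.61 and 37.3 CPM), and the log2 ratio was 3.37 (2.49 to 4.40). In the ventral forebrain and striatum gate it had 5 and 78 UMIs (2.39 and 28.3 CPM), and the ratio was 3.56 (2.28 to 5.23). The difference between the libraries was present in these gates and, as given above, in nuclei without a Hox or boundary marker UMI, in unequal size.

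**Figure D4:**
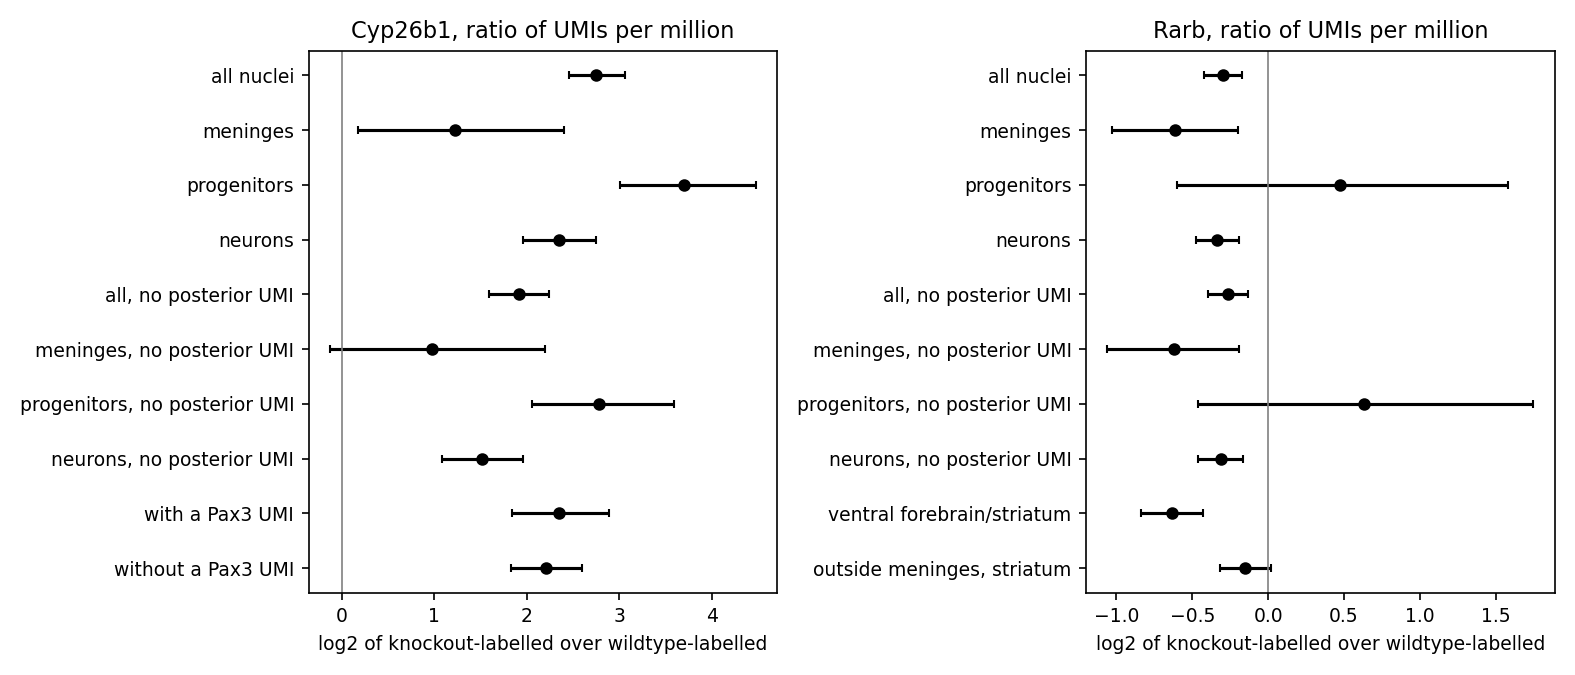
Log2 of knockout-labelled over wildtype-labelled CPM for Cyp26b1 (left) and Rarb (right) in sets of nuclei, with exact 95% counting intervals and a line at 0; "no posterior UMI" leaves out nuclei with any Hox or boundary marker UMI. The Cyp26b1 ratio was 2.75 in all nuclei and 1.91 without those nuclei, and the Rarb ratio was -0.30 and -0.26.

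Nuclei with Cyp26b1 could also be described by the other genes they carried. Genes were ranked by their level in nuclei with a Cyp26b1 UMI over that in other nuclei of the same gates, taking the lower fold of the 2 libraries. First was Pax3, a transcription factor of the dorsal neural tube, at 10.3-fold and 8.66-fold. It was followed by the noncoding RNA 8030451A03Rik (5.06 and 4.32) and Tnc, the matrix protein tenascin C (4.29 and 3.97). These last 2 overlap on opposite strands of chromosome 4, so their reads may not be told apart. Next came the chloride channel gene Ano1, Smoc1, Luzp2, Rfx4, Rgma, Meis1 and Boc, all at 2.19-fold or more in both libraries.

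Pax3 was present in 16 of 71 (22.5%) and 83 of 272 (30.5%) nuclei with Cyp26b1, against 1.95% and 2.54% of nuclei without. Its own library totals were 347 and 670 UMIs, a log2 ratio of 0.74 (0.55 to 0.93). Nuclei with a Pax3 UMI had 35 and 455 Cyp26b1 UMIs (64.1 and 325 CPM), a log2 ratio of 2.34 (1.84 to 2.88). Nuclei without one had 69 and 353 UMIs (4.14 and 19.1 CPM), a ratio of 2.21 (1.83 to 2.60). The intervals of these 2 ratios overlapped.

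The nuclei with several copies could be compared most directly. In the 105 knockout-labelled nuclei with 2 or more Cyp26b1 UMIs, Slc1a3, the glutamate transporter of radial glia, was at 500.5 CPM against 115 CPM in nuclei without Cyp26b1. Sox2, another gene of neural progenitors, was at 40.4 against 31.1 CPM, with overlapping intervals. Boundary genes did not move together: Cnpy1 was at 84.0 against 13.2 CPM and Pax2 at 40.4 against 10.7, while En1 (9.69 against 10.4), En2 (12.9 against 8.86), Pax5 (21.0 against 15.7) and Pax8 (1.61 against 3.33) had overlapping intervals. Pax2 had 0 UMIs (0 to 9.28 CPM) in the 58 of these nuclei with 5 or more Cyp26b1 UMIs, where Cnpy1 was at 95.6 CPM. In the 105 nuclei, Dhrs3, which turns retinaldehyde back into retinol, was at 54.9 against 8.86 CPM. The 15 wildtype-labelled nuclei of this kind also had more Tnc (1178 against 94.9 CPM), Smoc1 (689 against 46.5 CPM) and Slc1a3 (422 against 122 CPM). Dhrs3 had 1 UMI in them. They held 0 UMIs of the 9 boundary genes (0 to 82.0 CPM), against 170 CPM (139 to 205) in the 105 knockout-labelled nuclei. Of those 105, 16 had a Hox UMI and 49 had neither a Hox nor a boundary marker UMI. Rarb was at 422 against 62.4 CPM in the 15 wildtype-labelled nuclei (19 UMIs, with 2 of the nuclei in the meninges gate). In the 105 it was at 48.4 CPM (32.7 to 69.1) against 51.6 CPM, and these overlapped.

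**Figure D5:**
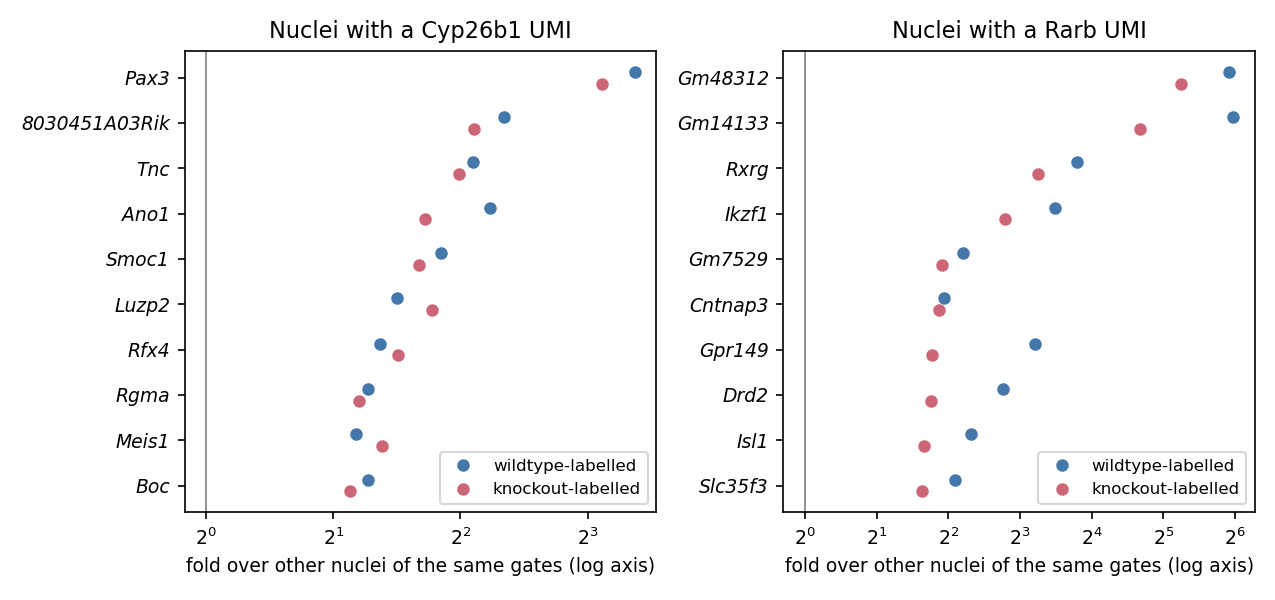
Fold of a gene's level in nuclei with a Cyp26b1 (left) or Rarb (right) UMI over other nuclei of the same gates, on a log axis, for the 10 genes with the largest lower fold of the 2 libraries (blue wildtype-labelled, red knockout-labelled). Pax3 led for Cyp26b1 at 10.3 and 8.66, and 2 noncoding genes ahead of Rxrg (13.9 and 9.56) led for Rarb.

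Crabp1, which holds retinoic acid in the cytosol (chr9:54671171-54680403, plus strand), had 37 UMIs (2.15 CPM) and 76 UMIs (3.82 CPM), a log2 ratio of 0.83 (0.25 to 1.44). Each of the 37 wildtype-labelled nuclei had a single UMI, and 3 of the 72 knockout-labelled nuclei had more than 1. Its share was low in every main gate: 1.12% and 0.943% of the meninges gate, 0.375% and 0.550% of progenitors and 0.617% and 1.16% of neurons. The intervals of these shares overlapped within each library, so no main gate stood out. In nuclei with at least 1000 genes, the counts were 33 and 53 UMIs and the log2 ratio 0.45 (-0.20 to 1.12).

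Rarb (ENSMUSG00000017491, chr14:5650540-6041094, plus strand) is itself a textbook target of retinoic acid. Its end overlaps Top2b on the opposite strand, and whether counting used strand is not given in the sources used here. Rarb had 1087 UMIs (63.2 CPM, 59.5 to 67.0) in 446 nuclei and 1021 UMIs (51.4 CPM, 48.3 to 54.6) in 467 nuclei. The log2 ratio was -0.30 (-0.42 to -0.17), with intervals that did not overlap and a size below the 2-fold mark. The share of nuclei with a UMI did not follow: it was 6.67% and 6.99%, and 3.94% and 3.81% after thinning.

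Rarb was highest in the meninges gate, with 101 UMIs (306 CPM) and 99 UMIs (201 CPM), a log2 ratio of -0.61 (-1.03 to -0.20). It was seen in 61.8% and 53.8% of these nuclei. The neuron gate came next among the 3 main gates, with 866 UMIs (68.3 CPM) and 810 UMIs (54.2 CPM), a ratio of -0.33 (-0.47 to -0.19). Progenitors had 14 and 19 UMIs (8.82 and 12.2 CPM), a ratio of 0.47 (-0.60 to 1.58). Choroid plexus (59.6 and 44.8 CPM), mural (61.9 and 95.2 CPM) and intermediate progenitor nuclei (56.2 and 35.8 CPM) had intervals that overlapped that of neurons.

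Among the gates of forebrain markers, nuclei of the ventral forebrain and striatum gate carried the most Rarb. They had 424 UMIs (203 CPM) and 361 UMIs (131 CPM), 39.0% and 35.4% of all Rarb UMIs in 445 and 470 nuclei. The log2 ratio there was -0.63 (-0.84 to -0.43). Outside the meninges gate and the ventral forebrain gate 567 and 578 UMIs remained, with a ratio of -0.15 (-0.32 to 0.02). The forebrain gate was also below 0, with 164 and 113 UMIs and a ratio of -0.80 (-1.16 to -0.44). So was the diencephalon and midbrain gate, with 143 and 131 UMIs and a ratio of -0.49 (-0.84 to -0.13). Intervals of the last regional gates included 0. The boundary gate had 4 and 35 UMIs at 0.30 (-1.18 to 2.25), and the hindbrain and spinal cord gate 3 and 34 at -1.76 (-3.43 to 0.59). Whether these ratios differ from each other was not tested. The summed markers of the meninges differed by -0.08 on the log2 scale. Those of the ventral forebrain gate differed by 0.05, but Ebf1 made up most of that sum (11275 of 17602 and 14307 of 20989 UMIs) at a ratio of 0.14. Of its 8 markers, 2 were higher and the other 6 had ratios between -0.24 (Dlx5) and -0.05 (Isl1). Their part in the Rarb ratio was not tested.

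A pair of noncoding genes led the nuclei with Rarb: Gm48312, a processed pseudogene on the same chromosome (60.3-fold and 37.8-fold over other nuclei of the same gates), and the noncoding RNA Gm14133 (62.9-fold and 25.5-fold). Gm48312 does not overlap Rarb in the annotation, and counts of a pseudogene are uncertain where reads match several copies. The ranking was extended from Cyp26b1 to the other members after the data were seen. Next were Rxrg, a retinoid X receptor and so a possible partner of Rarb on DNA (13.9-fold and 9.56-fold), and Ikzf1, a zinc finger factor (11.3-fold and 6.92-fold). The dopamine receptor gene Drd2 (6.78 and 3.40) and Isl1 (4.98 and 3.17), both known from striatal neurons, were also among the first 10. Rxrg was found in 53 of 446 (11.9%) and 53 of 467 (11.3%) nuclei with Rarb, against 0.833% and 1.08% of nuclei without. Ikzf1 was found in 13.7% and 10.9%, against 0.641% and 0.531%.

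Rara (chr11:98818612-98865768, plus strand) had 194 UMIs (11.3 CPM) and 181 UMIs (9.11 CPM), spread thinly, with at most 2 in a nucleus. Its log2 ratio was -0.31 (-0.61 to -0.01). In the meninges gate it stood at 33.4 CPM (16.7 to 59.7) and 22.3 CPM (11.1 to 39.9), from 11 UMIs in each. The neuron gate lay below these intervals at 11.1 and 8.69 CPM, and progenitors had 10.1 and 12.2 CPM. Rarg (chr15:102143373-102165952, minus strand) had 136 UMIs (7.90 CPM) and 135 UMIs (6.79 CPM), a ratio of -0.22 (-0.57 to 0.14). It stood at 30.3 and 32.4 CPM in the meninges gate (10 and 16 UMIs), above 7.88 and 6.09 CPM in neurons and 3.78 and 4.51 CPM in progenitors. Endothelial nuclei (15.2 and 18.7 CPM from 4 and 5 UMIs) had intervals that overlapped that of the meninges. Of the 3 main gates, the meninges gave all 3 receptor genes their highest level, although the knockout-labelled intervals of Rara in meninges and progenitors overlapped. Mural nuclei, with 2 and 3 UMIs of each, were at like levels for Rara and Rarg (30.9 and 23.8 CPM).

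Likeness over gates was measured as Pearson's r of log2(CPM + 5) over 18 points, the 9 gates in each library, among 15524 genes. These points share libraries and depth, and r is given as a description. Aldh1a2 was most like Col13a1 (0.96), Cldn11 (0.95) and Tex15 (0.95). Rarb was most like Hlf (0.88), Arhgap20os (0.86) and Adcy5 (0.83), and Rarg most like Cthrc1 (0.92), Slc19a1 (0.91) and Plin3 (0.90). For Cyp26b1 the nearest were Gtpbp3 (0.82), Col9a2 (0.79) and Gm1604a (0.78).

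The rest of the pathway was read from 3 lists. Among 18 genes of retinoid supply and binding, 12 had at least 20 UMIs, 0 were 2-fold or more higher and 0 lower, and the median log2 ratio was -0.04. Its most counted genes included the fatty acid-binding protein gene Fabp5 (7550 and 7842 UMIs, ratio -0.15) and Adh5 (935 and 1036 UMIs, ratio -0.06). Of the 14 receptor partners and cofactors, all passed the minimum, 0 were 2-fold or more higher and 0 lower, with a median of -0.06. Rere, Crebbp and Ncoa1 had the most UMIs, with ratios of -0.10, -0.06 and -0.19. Rxrg, the partner gene seen in Rarb nuclei, had 133 and 161 UMIs, a ratio of 0.07 (-0.27 to 0.41).

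Among 19 genes known as retinoic acid targets, 13 passed the minimum, 5 were 2-fold or more higher and 0 lower, with a median of 0.25. All 5 were Hox genes: Hoxb3 with 3 and 175 UMIs, Hoxb4 with 1 and 41, Hoxb2 with 0 and 52, Hoxa3 with 0 and 48, and Hoxa2 with 0 and 35. Against a floor of 3 UMIs the last 3 were 15.0-fold, 13.8-fold and 10.1-fold higher, with exact lower limits of 11.8-fold, 10.8-fold and 7.79-fold. All 5 are among the hindbrain markers given above, which had few or no UMIs in the wildtype-labelled library. Hindbrain content and genotype cannot be told apart in them. A gene with no wildtype-labelled UMI passed the minimum through the knockout-labelled library alone, so it had to differ. Without the hindbrain markers the median of the remaining 8 targets was 0.03. The other 6 targets had under 20 UMIs.

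Targets outside the Hox clusters lay on both sides of 0, and Dhrs3 and Stra6 also stand in the supply list. Meis1, a homeobox cofactor gene, had 1625 UMIs (94.4 CPM) and 3280 UMIs (165 CPM), a ratio of 0.80 (0.72 to 0.89), and it was also a leading gene of nuclei with Cyp26b1. Its relative Meis2 (30939 and 32358 UMIs) had a ratio of -0.14. Dhrs3 (178 and 208 UMIs, 0.02), Stra6 (72 and 99, 0.25), Tgm2 (91 and 113, 0.10) and Olig2 (90 and 107, 0.04) all had intervals that included 0. Apart from those 5 Hox genes, no gene of the 3 lists that passed the minimum was 2-fold or more apart between the libraries.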

How the data were processed

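The deposited values were counts of UMIs per gene and barcode, 1 matrix per library. Per the file headers the authors made them with Cell Ranger 6.1.1, while the submitters' processing notes name Cell Ranger 3.0.1, STAR and the build GRCm39; annotation release, intron and strand settings are not given in the sources used here. Nuclei came from 9763 wildtype-labelled and 10811 knockout-labelled barcodes, after leaving out 2969 and 3904 under 500 genes and 108 and 227 over 5% mitochondrial UMIs.

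UMIs were summed over nuclei and scaled to CPM (Python 3.11.15, numpy 2.4.6, scipy 1.17.1), with exact Poisson intervals for levels, exact conditional binomial intervals for ratios and Clopper-Pearson intervals for shares, all at 95% and for counting error only. The ratio intervals were tested on simulated data with independent Poisson counts, which is the assumption they rest on. That checks the calculation only, and not UMIs that pile up in few nuclei or differences between replicates. There was no test between genotypes, since each had 1 library. A gene was counted as higher or lower at 2-fold or more, with at least 20 UMIs over both libraries. A gene that passed this minimum with 0 UMIs in 1 library was always counted. The floor of 3 UMIs was used only to print a fold or a detection limit.

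Gates count distinct marker genes with a UMI: at least 4 for meninges, endothelial, mural and choroid plexus nuclei, 3 for microglia or macrophages, oligodendrocyte precursors and intermediate progenitors, and the rules given with the results for progenitors and neurons. Their thresholds were set after the marker counts were seen. The haemoglobin genes passed 20% of UMIs in 1 nucleus, so no erythroid gate was made. Members, marker lists and pathway lists were chosen with earlier results of these data known. The genes named are the members, every pathway gene at 2-fold or more, the 3 most counted of each list, the 3 most alike genes per member, and the first 10 leading genes; Rxrg, Dhrs3, Stra6, Tgm2, Olig2 and the levels in nuclei with several Cyp26b1 UMIs were chosen after their values were seen.

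Scrublet (in scanpy 1.11.5) marked 0 doublets at its automatic threshold, which means that the caller did not work here; doublets were therefore kept, and an alternative removed the 8% of nuclei with the highest scores (535 and 534). Other alternatives were 200 or 1000 genes per nucleus, 2% mitochondrial UMIs, shared barcodes left out, another scaling, 1 marker more per gate, thinning to 1000 UMIs, and 1.5-fold or 50 UMIs for calls. Gene positions are from GENCODE on GRCm39, where 54749 of 55416 features and all 9 members matched by identifier. Promoter sequences are from RefSeq on GRCm38.p6, and coordinates of the 2 builds were not mixed. Some named-gene results under this rule are not reported here.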

Additional observations from a re-analysis of the deposited data

Results flagged for a closer look

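In barcodes that the comparisons do not use, 2 members had a library ratio whose counting interval lay above 0. Those left out for few genes or a high mitochondrial share numbered 3077 and 4131 (wildtype-labelled first), and they summed to 1843454 and 2626005 UMIs. Cyp26b1 stood there at 9.76 and 40.7 CPM, from 18 and 107 UMIs, and the log2 ratio was 2.06 (1.33 to 2.87). Kept nuclei had it at 6.04 and 40.6 CPM. Crabp1 stood at 10.3 and 18.3 CPM in the left-out barcodes, from 19 and 48 UMIs, and the log2 ratio was 0.83 (0.03 to 1.68). Kept nuclei had it at 2.15 and 3.82 CPM. Rarb was lower in the left-out barcodes, at 4.34 and 8.76 CPM, than in kept nuclei at 63.2 and 51.4 CPM. Aldh1a2 was at 5.42 and 9.14 CPM in the left-out barcodes, from 10 and 24 UMIs, with a ratio of 0.75 (-0.36 to 1.98), an interval that includes 0.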

How the results depend on the processing

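Of 158 alternative values, 137 stayed within the counting interval or call of the reported value, 20 moved and 1 reversed. The reversal was the Cyp26b1 ratio in the meninges gate, at -1.21 once the 8% of nuclei with the highest Scrublet scores were removed; the cause was not tested. The same removal moved Aldh1a2 in the wildtype-labelled meninges gate to 182 CPM. Without nuclei with a hindbrain or boundary marker UMI, chosen after seeing the data, the Cyp26b1 ratio was 1.91. Thinning to 1000 UMIs lowered shares by its construction: Cyp26b1 in all nuclei to 0.497% and 2.35%, in progenitors to 0.746% and 6.04%, Rarb in all nuclei to 3.94% and 3.81%, and Aldh1a2 in meninges to 9.20% and 11.4%. At 1.5-fold, 2 members were higher (Cyp26b1 and Crabp1) and 1 supply gene (Aldh1a1). With at least 50 UMIs, 2 targets were higher (Hoxb2 and Hoxb3), since fewer genes were tested. Of nuclei with Cyp26b1, 16.9% and 22.4% were in the progenitor gate. Among those with 2 or more UMIs the shares were 3 of 15 nuclei and 34.3%, and among those with 5 or more, also chosen after seeing the data, the shares were 0% (of 3 nuclei) and 36.2%. Pax3 was found in 46.7% and 55.2% at 2 or more UMIs and in 66.7% and 69.0% at 5 or more. No paired analysis was possible because each genotype had 1 library, and no replicate could be left out. Depth limits Cyp26a1 and Cyp26c1, with at most 2 UMIs in a library.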
